A study of Mus musculus with 9 samples.

Results

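The cornified envelope genes are the genes whose products build or crosslink the tough protein shell of squamous epithelial cells. Here they are all genes of the count table named Sprr or Lce with a number, together with Ivl, Lor, Flg2, Hrnr, Rptn, Cnfn, Tgm1, Tgm3, Krtdap, Sbsn, Dmkn, Cdsn and Crct1, which gave 49 of 34142 genes. Flg, Lce1d and Sprr2c-ps were not analysed here. Bulk RNA-seq of whole mouse corneas covered 3 wild-type libraries (WT), 2 of untreated Aire KO mice (KO) and 4 of Aire KO mice given PBS, a salt solution (KO + PBS). Aire is the factor that lets the thymus display tissue proteins to developing T cells, and the series design names its knockout as dry eye disease. The titles give 5 wk for the untreated libraries and 24 hr for the PBS libraries, while the design text gives day 7 of treatment and 6 wk of age. The strain and the kind of Aire allele are not stated in the labels. Whether each library came from a single mouse or from pooled mice is not labelled, and p-values here measure only the spread between these libraries.

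As squamous cells die in a programmed way, transglutaminases crosslink scaffold proteins such as involucrin, loricrin, the small proline-rich (SPRR) proteins and the late cornified envelope (LCE) proteins beneath the plasma membrane. The envelope is the barrier of skin. The corneal epithelium is stratified and squamous but normally does not cornify, and at a dry ocular surface SPRR1B is a known marker of squamous metaplasia, the turn of wet epithelium towards a skin-like state. Most of the scaffold genes lie side by side in the epidermal differentiation complex: 42 of the 49 members lie on chromosome 3 between 92080271 and 93399442 (GRCm38), a stretch of 1319 kb. Cnfn, Sbsn, Dmkn and Krtdap lie on chromosome 7, Tgm1 on 14, Cdsn on 17 and Tgm3 on 2.

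Library totals ran from 22944576 to 104518572 counts, and untreated and PBS libraries stood apart. Counts assigned to processed pseudogenes, which are copies of spliced transcripts, made up 18.4 to 22.5% of each untreated library but 0.362 to 0.426% of each PBS library. Mitochondrial genes had 0 counts in every untreated library, while their share was 0.797, 6.13, 0.924 and 0.882% in KO + PBS replicates 1 to 4. PBS treatment and library type therefore cannot be told apart below, whereas KO and WT are of 1 type. Krt12, the keratin of corneal epithelium, was the defining marker of the labelled tissue at 30324 ± 2707 CPM (SD, n = 3) in WT, 30364 ± 11213 CPM (SD, n = 2) in KO and 4941 ± 948 CPM (SD, n = 4) in KO + PBS. Aire itself had 23 counts over the WT libraries, 3 over KO and 25 over KO + PBS, or means of 0.135, 0.0309 and 0.195 CPM. The libraries labelled KO + PBS were thus not below WT in Aire, and with so few counts, and the deleted part of the gene not given in the labels, the genotype could not be checked. CPM are counts scaled to library size, with TMM factors.

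Of the 49 members, 24 had enough counts to be tested, 5 had 0 counts in all 9 libraries (Lce1b, Lce1a2, Lce1i, Flg2 and Hrnr), and 20, these 5 included, had fewer than 10 counts over all libraries. The 25 untested members include all 14 Lce1 and Lce6 genes, which serve the envelope of skin: the summed level of Lce1a1, Lce1b, Lce1a2, Lce1c, Lce1e, Lce1f, Lce1g, Lce1h, Lce1i, Lce1j, Lce1k, Lce1l, Lce1m and Lce6a was at most 0.393 CPM (without TMM factors) in any library. Rptn, which with Flg2 and Hrnr makes up the fused S100 genes for filament-bundling proteins, had at most 0.0654 CPM. Sprr2b, Sprr2e, Sprr2i, Sprr2j-ps, Sprr2k, Sprr3, Sprr4 and Krtdap, a secreted keratinocyte protein, were the other untested members. Each of these 8 had its highest value in KO replicate 1, from 0.144 CPM for Sprr4 to 2.30 CPM for Sprr2e. Some of these values rest on very few counts there, 3 for Sprr4, 4 for Sprr2k and 5 for Sprr2j-ps, and 3 counts cannot be told from 0. The skin keratin genes Krt1 and Krt10 were lower in both KO libraries than in every WT library. The same separation held for 26.4% of all genes tested, so it does not set these 2 genes apart. Of 6 eyelid skin and epidermis markers tested in the 5 untreated libraries alone, 1 was called higher in KO and 0 lower. Krt1 had 5.17, 5.50 and 5.54 CPM in WT replicates 1 to 3, 2.64 and 3.85 CPM in KO replicates 1 and 2, and 3.37, 4.69, 2.46 and 1.67 CPM in KO + PBS replicates 1 to 4. Krt10 had 9.32, 9.03 and 10.7 CPM in WT replicates 1 to 3, 7.19 and 8.01 CPM in KO replicates 1 and 2, and 13.5, 9.15, 9.73 and 11.4 CPM in KO + PBS replicates 1 to 4. Krt16 had 24.2, 37.7 and 28.8 CPM in WT replicates 1 to 3, 4519.9 and 475 CPM in KO replicates 1 and 2, and 21.4, 99.5, 28.05 and 98.2 CPM in KO + PBS replicates 1 to 4. This keratin gene of stressed epithelium is named after its values were seen, and both KO libraries were above all 7 others. The part of these keratins in the results was not tested.

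In WT corneas the members' RNA was mostly that of the Lce3 genes, whose human relatives are known for their induction in psoriasis. The 6 Lce3 genes lie within 68.1 kb (chromosome 3, 92925287 to 92993426) and took 72.5, 70.1 and 69.0% of the members' summed CPM in WT replicates 1 to 3. How reads that match several of these near-identical genes were counted is not given, so this share is uncertain. Per kilobase of exon, the level of Lce3a was 356 ± 98.7 CPM per kb (SD, n = 3), ahead of Cnfn, which codes for cornifelin, at 119.6 ± 60.4. Lce3d at 99.3 ± 30.6, Lce3f at 98.5 ± 32.6 and Lce3e at 83.05 ± 25.9 CPM per kb followed; they differed from each other by less than their SDs and from Cnfn by less than its SD. Lce3b, Crct1, a cysteine-rich gene of the same complex, and Lce3c came next at 38.6 ± 16.8, 27.6 ± 10.4 and 19.2 ± 7.16 CPM per kb. Sprr1a, at 10.4 ± 2.43 CPM per kb, and the crosslinking enzyme gene Tgm1, at 9.88 ± 0.561, were level within their SDs, with the early scaffold gene Ivl at 4.20 ± 0.698. Every other member was under 1 CPM per kb in WT, among them Lor, the main scaffold gene of skin.

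In KO the make-up was another one. Lce3 genes took 25.7 and 32.9% of the members' summed CPM in KO replicates 1 and 2, and Sprr genes took 33.9 and 11.6%, against 1.53 to 2.42% in WT. Per kilobase, Cnfn at 347 ± 91.6, Lce3a at 232 ± 0.682 and Sprr1a at 177 ± 129 CPM per kb (SD, n = 2) were the 3 highest. In KO + PBS, Lce3 genes took 20.1, 5.25, 32.4 and 14.4%, and Sprr genes 11.1, 49.6, 9.88 and 40.6%, in replicates 1 to 4. The KO + PBS shares come from the other type of library, and the part of library type and shared sequence in their difference was not tested. The heat map shows the tested members by library.

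**Figure D1:**
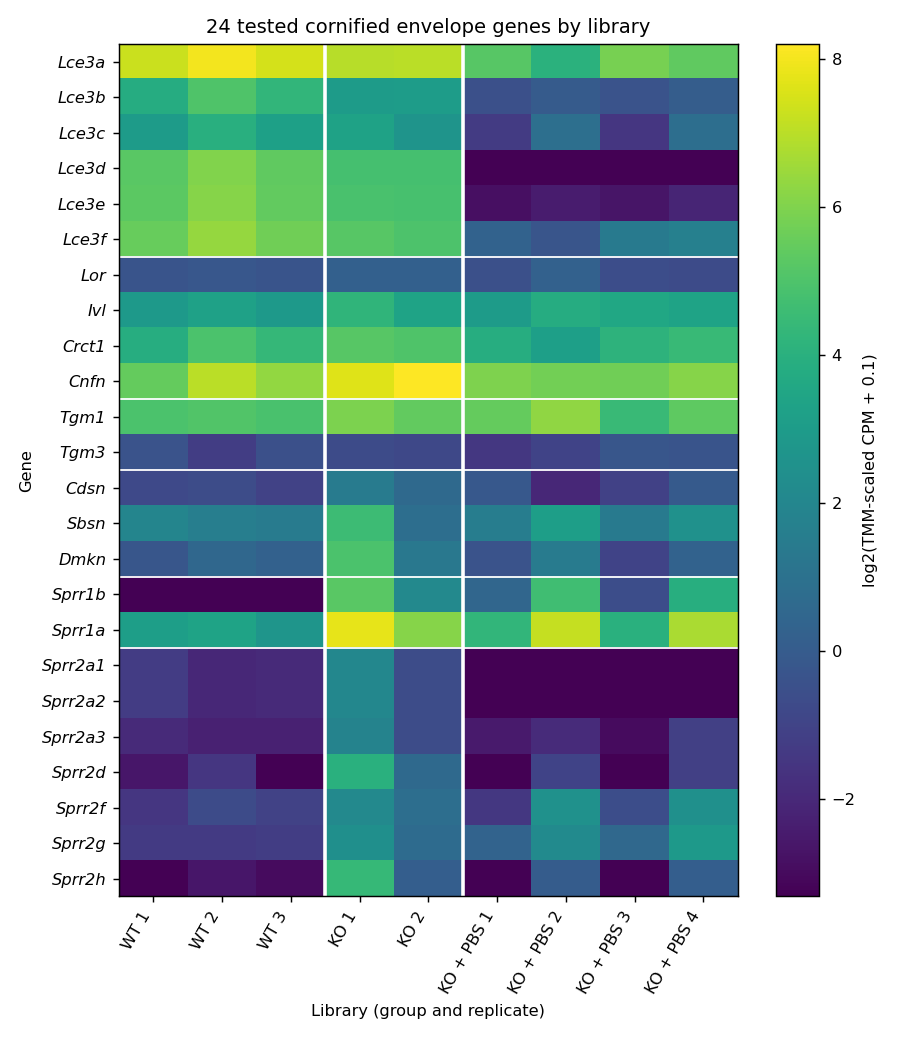
Heat map of the 24 tested members in each of the 9 libraries, as log2(TMM-scaled CPM + 0.1), with genes in rows by family and libraries in columns by group. The Lce3 rows are darker in KO + PBS, where Lce3d is at 0 in all 4 libraries, than in WT and KO, and the Sprr1 rows and most Sprr2 rows are brightest in KO replicate 1.

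The promoters of 7 of 14 Sprr genes carry a shared arrangement of letters, shown because the largest differences between KO and WT were among these genes. RefSeq sequences (GRCm38.p6) of 300 bases around the start site were found for 45 members and missing for Sprr2g, Sprr2j-ps, Crct1 and Lce1f. Those of Sprr1a (chr3:92485832-92486131, minus strand), Sprr1b (chr3:92438730-92439029, minus strand), Sprr2h (chr3:92385435-92385734, plus strand) and, for contrast, Lce3a (chr3:92926181-92926480, minus strand) are given 5′ to 3′. Capitals mark the AP-1 letters TGANTCA and the TATA letters TATAAA.
Sprr1a: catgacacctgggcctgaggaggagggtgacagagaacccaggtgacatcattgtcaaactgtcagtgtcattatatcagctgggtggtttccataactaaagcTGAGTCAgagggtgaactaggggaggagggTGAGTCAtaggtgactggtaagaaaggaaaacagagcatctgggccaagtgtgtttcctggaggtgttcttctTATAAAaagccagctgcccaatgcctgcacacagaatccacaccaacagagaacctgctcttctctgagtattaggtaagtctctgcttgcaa
Sprr1b: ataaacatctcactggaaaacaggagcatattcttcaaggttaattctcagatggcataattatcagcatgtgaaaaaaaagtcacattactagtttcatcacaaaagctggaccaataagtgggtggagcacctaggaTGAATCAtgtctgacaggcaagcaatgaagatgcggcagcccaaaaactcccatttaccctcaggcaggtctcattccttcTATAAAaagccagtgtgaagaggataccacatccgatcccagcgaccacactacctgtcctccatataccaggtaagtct
Sprr2h: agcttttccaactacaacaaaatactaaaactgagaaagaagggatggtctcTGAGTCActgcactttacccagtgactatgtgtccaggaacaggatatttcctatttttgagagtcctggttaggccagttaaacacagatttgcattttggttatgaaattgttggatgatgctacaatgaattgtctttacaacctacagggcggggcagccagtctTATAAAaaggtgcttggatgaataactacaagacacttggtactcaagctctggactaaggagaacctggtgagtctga
Lce3a: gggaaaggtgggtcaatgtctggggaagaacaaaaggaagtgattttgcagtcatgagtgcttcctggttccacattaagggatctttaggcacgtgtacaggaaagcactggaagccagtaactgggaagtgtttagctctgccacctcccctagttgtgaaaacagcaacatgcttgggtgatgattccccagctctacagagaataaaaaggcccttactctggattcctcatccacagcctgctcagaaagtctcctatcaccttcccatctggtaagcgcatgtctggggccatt

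AP-1 is the dimer of Fos and Jun proteins that is known to drive envelope genes in keratinocytes. Searched on both strands, the AP-1 letters stand in 16 of the 45 member promoters and in 7.93% of all 27025 promoters of this length. Sprr1a holds them 146 and 116 bases before the start site, Sprr1b 111 and Sprr2h 198. Sprr2b, Sprr2d, Sprr2e, Sprr2f, Sprr2h, Sprr2i and Sprr2k all hold them 182 to 198 bases before the start site, with the TATA letters 29 bases before it. In Sprr1a and Sprr1b the TATA letters stand 43 and 30 bases before the start site. The AP-1 letters are not particular to Sprr genes: Ivl, Lor, Sbsn, Dmkn, Krtdap, Rptn and Flg2, the last at 0 counts in every library, hold them too. None of the 6 Lce3 windows holds the AP-1 letters, nor do those of Sprr2a1, Sprr2a2, Sprr2a3, Sprr3 and Sprr4. The TATA letters stand in 19 of the 45 member promoters and in 14.2% of all, the Klf letters CACCC in 24 and in 56.7%, and the Grhl letters AACCNGTT in 1 and in 2.01%. In Sprr1a the AP-1 match at 116 shares letters with a Klf match at 119. These matches describe letters, not binding.

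**Figure D2:**
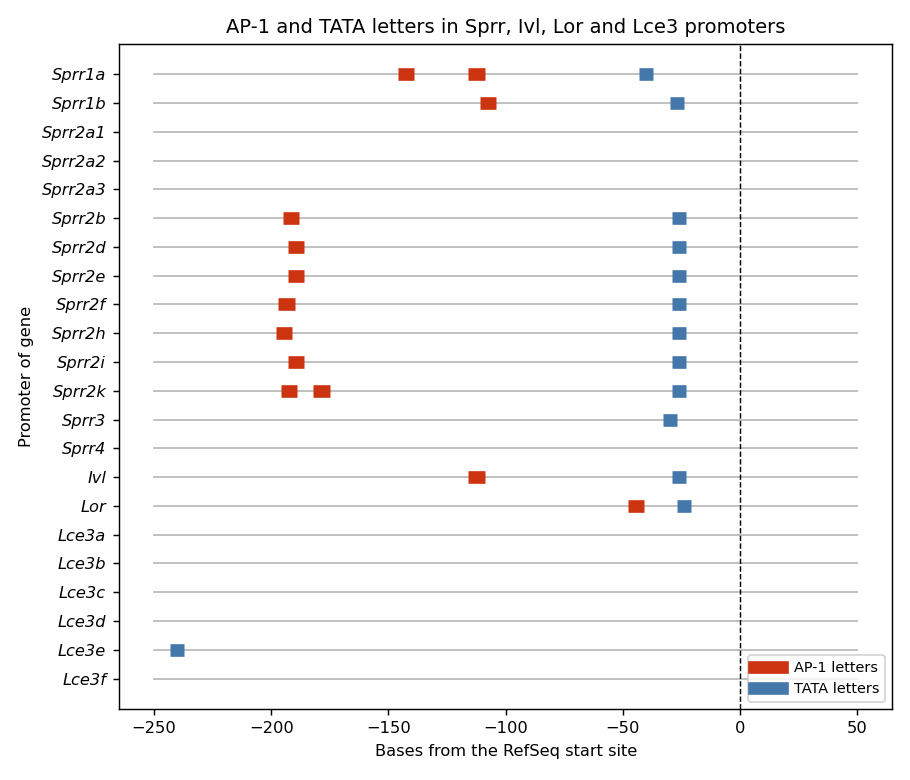
Positions of AP-1 letters (red) and TATA letters (blue) in bases from the RefSeq start site (dashed line), for the promoters of Sprr, Ivl, Lor and Lce3 genes. The marks of 7 Sprr2 genes line up, 182 to 198 bases before the start site for AP-1 and 29 bases before it for TATA, and the Lce3 lines hold no AP-1 mark.

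KO against WT addresses the effect of losing Aire on the untreated cornea. Levels of all 7 tested Sprr2 genes and both Sprr1 genes were higher in both KO libraries than in every WT library. Levels of 5 of the 6 Lce3 genes were lower in both. Without Sprr1b, log2 fold changes of the Sprr genes ran from 2.89 for Sprr2f to 8.13 for Sprr2h, and the Sprr1b mean was at least 299-fold higher. The count filter asks for enough counts in as many libraries as the smallest group holds, 2. Genes low in WT could thus be tested because KO was high. Sprr2a1 and Sprr2a2 passed only through KO, with 82 and 26 counts there against 10, 12 and 6 in WT and 0 in KO + PBS. Counts and medians over the tested members are not free of this choice. In edgeR's quasi-likelihood test on all 9 libraries, with p-values adjusted over 18489 genes, 0 of 24 members passed, where 0.963% of all genes were called higher and 0.703% lower. At an unadjusted p under 0.05 there were 17 members, and 3356 of all 18489 genes. DESeq2 called 9 members higher (Sprr1a, Sprr1b, Sprr2a1, Sprr2a2, Sprr2a3, Sprr2g, Sprr2h, Cnfn and Dmkn) and 1 lower, Lce3b (background 4.23 and 5.88%). Fitted to the 5 untreated libraries alone, edgeR called 11 of 25 members higher and 1 lower (background 11.5 and 8.99%). Sprr2a1 and Sprr2a2, with equal counts in every library, are 1 measurement, but each is counted as a member in all counts here and below. Leaving out KO + PBS replicate 2 from the 9 gave 9 and 1, where 1247 and 1010 of 18551 genes were called. Leaving out 1 WT library of the 5 gave 2 higher without WT replicate 3 (706 of 18032 genes) and 4 without WT replicate 1 (901 of 18116 genes). Leaving out a KO library leaves 1, with no spread between KO libraries. Those counts are left out here and do not measure how stable the calls are.

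Neither KO library overlapped the WT range for 21 members, of which 16 were above and 5 below; 3 overlapped, while 24.9% of all genes lay above and 26.4% below. The median log2 fold change was 1.79 over the members and -0.02 over all genes tested. In whole corneas, fewer cells of a type and less RNA per cell cannot be told apart. The stroma markers, all 14 detected in every library, reached 9948 to 11725 CPM in sum in WT, against 2813 and 3511 CPM in KO. The gland markers reached 265 to 318 CPM in WT, against 1044 and 2171 CPM in KO, with 10 to 14 of 15 above 0 in WT and 14 in both KO libraries. The part of either in the members' differences was not tested. Corneal epithelium markers reached 66656 to 73828 CPM in WT, against 56724 and 73573 CPM in KO. Those of eyelid skin and epidermis reached 3356 to 4345 CPM in WT, against 3979 and 4276 CPM in KO. Of their 12 genes, 10 to 11 were above 0 in WT and 8 to 11 in KO, with Skint9 at 0 in every library. The skin keratin genes Krt1 and Krt10 were a small part of this sum, so it cannot show whether skin content was equal.

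Sprr1a and Sprr1b code for small proline-rich crosslinking substrates, and Sprr1a is also known for its induction in injured tissue. Sprr1a had 8.59, 10.2 and 6.30 CPM in WT replicates 1 to 3, 217 and 69.1 CPM in KO replicates 1 and 2, and 19.1, 148, 15.8 and 106 CPM in KO + PBS replicates 1 to 4. Both KO libraries were above every WT library, and KO replicate 1 was the highest of all 9. The log2 fold change from WT to KO was 4.09 ± 0.96 (SE, adjusted p = 0.0689), and in the untreated libraries alone Sprr1a rose by 4.09 ± 0.53 (adjusted p = 0.00864). Over the alternatives that kept both KO libraries, its adjusted p ran from 0.000115 to 0.263. Sprr1b had 0, 0 and 0 CPM in WT replicates 1 to 3, 38.3 and 4.22 CPM in KO replicates 1 and 2, and 1.29, 25.5, 0.559 and 15.1 CPM in KO + PBS replicates 1 to 4. Its 3 WT libraries, with at most 3 counts allowed in each, were the only group without it. The KO mean of Sprr1b was at least 299-fold higher (adjusted p = 0.0824 over all 9 libraries), but KO replicate 1 carried most of that mean. The fit to the untreated libraries gave an adjusted p of 0.129 for Sprr1b, and DESeq2 3.83e-06. Over the alternatives that kept both KO libraries, DESeq2 gave the lowest value and the replicate block the highest, 0.250.

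Sprr2 genes code for a family of shorter bridging proteins. Sprr2h had 0, 0.0612 and 0.0270 CPM in WT replicates 1 to 3, 21.2 and 0.989 CPM in KO replicates 1 and 2, and 0, 0.909, 0 and 0.981 CPM in KO + PBS replicates 1 to 4. KO replicate 1 stood far above replicate 2, and the difference of Sprr2h was 8.13 ± 2.04 (adjusted p = 0.0808). Sprr2g had 0.285, 0.294 and 0.325 CPM in WT replicates 1 to 3, 5.28 and 1.52 CPM in KO replicates 1 and 2, and 1.17, 4.43, 1.40 and 7.36 CPM in KO + PBS replicates 1 to 4. The KO libraries of Sprr2g were closer to each other, and its difference was 3.47 ± 0.86 (adjusted p = 0.0790). In the untreated libraries alone both rose, Sprr2h with an adjusted p of 0.0362 and Sprr2g with 0.00775. Over the alternatives that kept both KO libraries, the adjusted p ran from 0.0161 to 0.306 for Sprr2h and from 0.00166 to 0.266 for Sprr2g.

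Sprr2d had 0.0634, 0.257 and 0 CPM in WT replicates 1 to 3, 15.7 and 1.44 CPM in KO replicates 1 and 2, and 0, 0.398, 0 and 0.360 CPM in KO + PBS replicates 1 to 4. Sprr2f had 0.254, 0.514 and 0.379 CPM in WT replicates 1 to 3, 4.17 and 1.69 CPM in KO replicates 1 and 2, and 0.265, 5.57, 0.559 and 5.46 CPM in KO + PBS replicates 1 to 4. Both genes showed the same order of the KO libraries, replicate 1 above replicate 2 above every WT library, and both rose in the untreated libraries alone, as did Sprr2e, which was tested there only. Sprr2a3 had 0.159, 0.110 and 0.108 CPM in WT replicates 1 to 3, 3.45 and 0.535 CPM in KO replicates 1 and 2, and 0.0758, 0.170, 0.0280 and 0.360 CPM in KO + PBS replicates 1 to 4. Its difference was 3.96 ± 1.00 (adjusted p = 0.0823), and it rose in the untreated libraries alone (adjusted p = 0.0194). Over the alternatives that kept both KO libraries, its adjusted p ran from 0.00619 to 0.294. Sprr2a1 and Sprr2a2 had equal counts in every library, in WT 0.317, 0.147 and 0.162 CPM and in KO 3.93 and 0.535 CPM, and rose in the untreated libraries alone. Their annotated spans overlap and their coding regions are identical, so they are 1 measurement, and Sprr2a3, with 61.1% of its 50-base stretches found in other genes, is uncertain too. Sprr1a, Sprr1b, Sprr2g and Sprr2h share no such stretch with another gene.

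**Figure D3:**
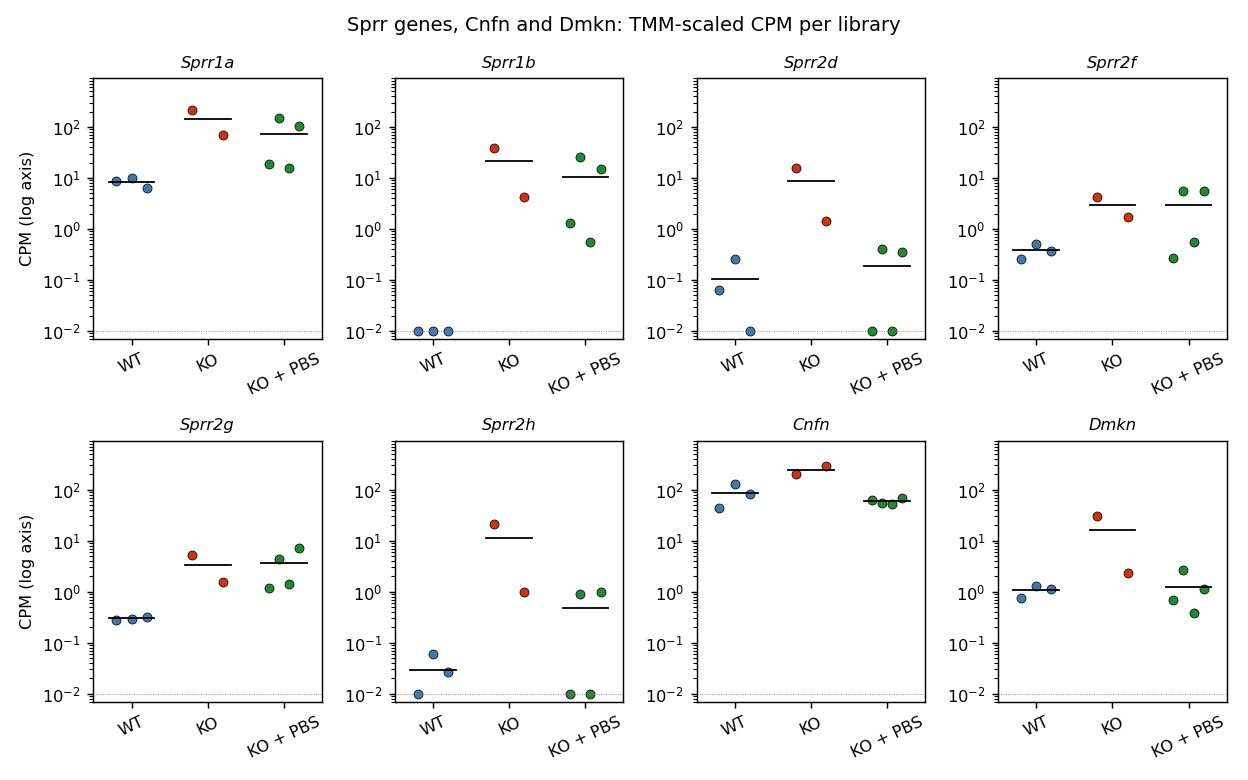
TMM-scaled CPM (log axis) of 6 Sprr genes, Cnfn and Dmkn in each library, as points by group with the group mean as a line; points on the dotted line at 0.01 are libraries at or under that value. The KO points lie above the WT points in all 8 panels, and KO + PBS replicates 2 and 4 lie above replicates 1 and 3 for Sprr1a, Sprr1b, Sprr2f and Sprr2g.

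Among the single scaffold genes, Cnfn had the highest level. Cnfn had 44.7, 131 and 81.9 CPM in WT replicates 1 to 3, 203 and 296 CPM in KO replicates 1 and 2, and 63.5, 54.6, 51.7 and 68.99 CPM in KO + PBS replicates 1 to 4. Both KO libraries lay above all others, KO replicate 2 being the higher, with a difference from WT of 1.53 ± 0.38. Its adjusted p was 0.0793, 0.0622 in the untreated libraries alone, and 0.00627 to 0.271 over the alternatives that kept both KO libraries. Crct1 had 14.4, 30.7 and 20.6 CPM in WT replicates 1 to 3, 36.8 and 32.7 CPM in KO replicates 1 and 2, and 14.4, 9.12, 17.3 and 21.8 CPM in KO + PBS replicates 1 to 4. Ivl had 7.48, 9.62 and 7.14 CPM in WT replicates 1 to 3, 18.5 and 10.2 CPM in KO replicates 1 and 2, and 7.96, 13.9, 11.4 and 10.3 CPM in KO + PBS replicates 1 to 4. For both genes the KO libraries were above the WT libraries with no call in either edgeR fit. Lor stayed between 0.523 and 1.11 CPM in all libraries.

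Tgm1 and Tgm3 code for transglutaminases, the enzymes that crosslink the envelope. Tgm1 had 30.8, 33.2 and 29.7 CPM in WT replicates 1 to 3, 60.4 and 43.6 CPM in KO replicates 1 and 2, and 44.2, 77.2, 22.6 and 40.1 CPM in KO + PBS replicates 1 to 4. Tgm1 rose in the untreated libraries alone, by 0.74 ± 0.15 (adjusted p = 0.0159, against 0.386 over all 9 libraries and 0.360 in DESeq2). Tgm3, between 0.265 and 0.755 CPM in every library, overlapped between all groups. Cdsn had 0.476, 0.539 and 0.379 CPM in WT replicates 1 to 3, 2.64 and 1.44 CPM in KO replicates 1 and 2, and 0.796, 0.142, 0.364 and 0.850 CPM in KO + PBS replicates 1 to 4. Cdsn, the gene of the adhesion protein corneodesmosin, rose in the untreated libraries alone by 2.10 ± 0.40 (adjusted p = 0.0130). The adjusted p of Cdsn was 0.156 over all 9 libraries and 0.0519 in DESeq2. Sbsn and Dmkn code for the secreted proteins suprabasin and dermokine. Sbsn had 3.65, 2.93 and 2.70 CPM in WT replicates 1 to 3, 23.8 and 1.69 CPM in KO replicates 1 and 2, and 2.88, 8.66, 2.49 and 5.53 CPM in KO + PBS replicates 1 to 4. Dmkn had 0.761, 1.32 and 1.11 CPM in WT replicates 1 to 3, 30.7 and 2.37 CPM in KO replicates 1 and 2, and 0.682, 2.67, 0.392 and 1.14 CPM in KO + PBS replicates 1 to 4. KO replicate 1 stood far above all other libraries in both, whereas KO replicate 2 was below every WT library for Sbsn and above every one for Dmkn, and neither was called by either edgeR fit.

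**Figure D4:**
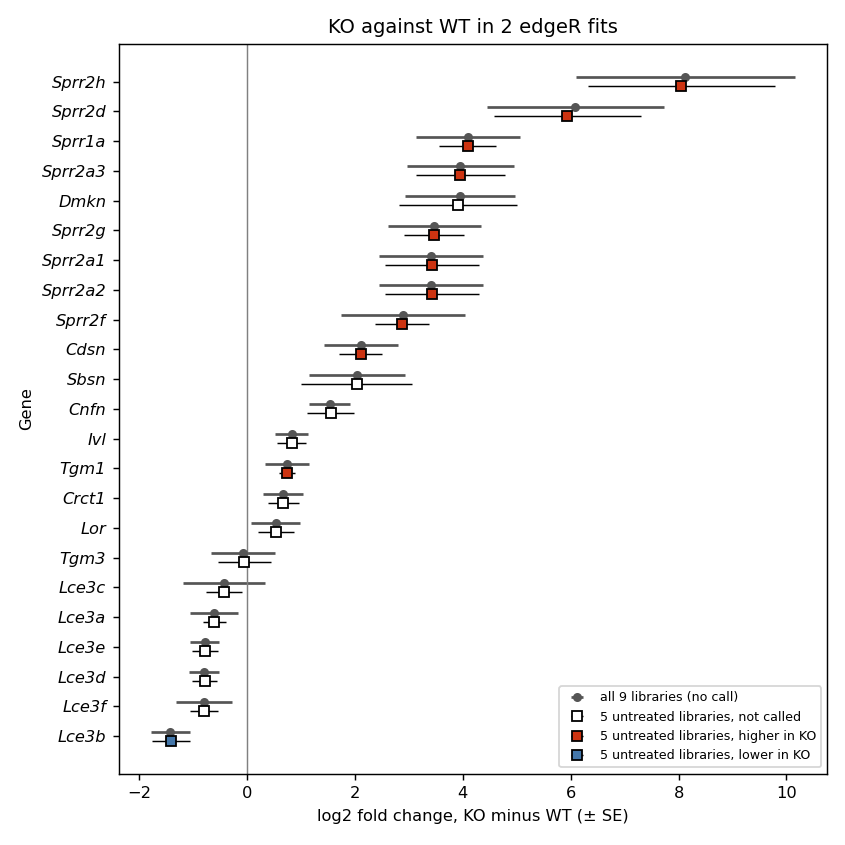
Log2 fold change of KO minus WT (± SE) for 23 tested members in edgeR fits to all 9 libraries (grey circles, none called) and to the 5 untreated libraries (squares; red called higher, blue called lower, white not called). Sprr1b is left out because it had 0 counts in WT. The estimates barely differ between the fits and the error bars are mostly shorter in the untreated fit.

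Lce3 genes showed the opposite side of the comparison. Lce3b had 13.9, 32.2 and 19.1 CPM in WT replicates 1 to 3, 8.06 and 8.16 CPM in KO replicates 1 and 2, and 0.606, 0.880, 0.671 and 0.949 CPM in KO + PBS replicates 1 to 4. Its KO libraries were below every WT library, and it fell in the untreated libraries alone by 1.42 on the log2 scale (SE 0.35, adjusted p = 0.0382). The adjusted p of Lce3b was 0.0825 over all 9 libraries and 0.00413 in DESeq2. Lce3a had 154, 257 and 175 CPM in WT replicates 1 to 3, 127 and 128 CPM in KO replicates 1 and 2, and 37.5, 16.2, 56.9 and 42.3 CPM in KO + PBS replicates 1 to 4. Lce3a was not called between KO and WT in either edgeR fit, nor were Lce3d, Lce3e and Lce3f, whose KO libraries also lay below every WT library. Lce3c overlapped, with in WT 7.90, 15.5 and 9.25 CPM and in KO 10.02 and 6.22 CPM.

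Counts of single Lce3 genes are uncertain, and so are their sums, since the treatment of multi-mapped reads is not given. Their coding regions are 294 bases long, and 2 to 16 of those bases differ between any 2 of the 6 genes. Other genes hold 12.1% (Lce3b), 19% (Lce3a), 35.7% (Lce3c), 43.7% (Lce3e), 48.0% (Lce3f) and 49.3% (Lce3d) of their 50-base stretches.

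KO + PBS against KO addresses the effect of PBS on the knockout cornea, here across both types of library. All 6 Lce3 genes, Sprr2a1, Sprr2a2, Sprr2a3, Sprr2d, Sprr2h, Cnfn, Crct1, Dmkn and Cdsn fell, 15 of 24 tested members, and 0 rose. Of all genes tested, 29.7% fell and 23.6% rose. All 4 KO + PBS libraries lay below both KO libraries for 14 members (34% of all genes), above for 0 (26.9%), and 10 overlapped. The median log2 fold change was -1.99 over the members and -0.02 over all genes. Of the 14 tested members that share under 5% of their 50-base stretches with other genes, 6 fell: Cnfn, Dmkn, Sprr2d, Crct1, Sprr2h and Cdsn. With the replicate number as a block this count of 6 became 2, where 4633 of 18489 genes were called lower. Fewer members were called without KO replicate 1, which leaves 1 KO library, with Dmkn, Sprr2d, Sprr2a3 and Lce3c among those lost. Their log2 fold changes were then -0.86, -2.79, -1.64 and -2.53, and the median was -1.16 over the members and 0.09 over all genes. Summed corneal epithelium markers were 39504 to 61202 CPM in KO + PBS, gland markers 338 to 549 CPM and epidermis markers 2399.6 to 4661 CPM, and their part in the result was not tested.

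Lce3d had 38.3, 66.00 and 41.9 CPM in WT replicates 1 to 3, 28.3 and 27.9 CPM in KO replicates 1 and 2, and 0, 0, 0 and 0 CPM in KO + PBS replicates 1 to 4. Lce3e had 39.8, 68.4 and 43.00 CPM in WT replicates 1 to 3, 29.9 and 28.5 CPM in KO replicates 1 and 2, and 0.0379, 0.0852, 0.0559 and 0.131 CPM in KO + PBS replicates 1 to 4. Both were near equal in the untreated libraries and at or near 0 in all PBS libraries. Lce3d was at least 295-fold lower in KO + PBS than in KO against 3 counts per library (adjusted p = 4.32e-06), and Lce3e fell with a log2 fold change of -8.49 ± 0.35 (adjusted p = 7.24e-08). Lce3f had 45.9, 82.9 and 51.8 CPM in WT replicates 1 to 3, 37.02 and 32.02 CPM in KO replicates 1 and 2, and 1.14, 0.710, 2.60 and 3.17 CPM in KO + PBS replicates 1 to 4. Lce3f fell by a log2 fold change of -4.17 ± 0.50 (adjusted p = 0.000122), Lce3b by -3.38 ± 0.33 (3.66e-05), Lce3c by -3.01 ± 0.71 (0.00641) and Lce3a by -1.74 ± 0.40 (0.00550), each with no overlap of libraries. Lce3c had 0.303, 1.73, 0.252 and 1.70 CPM in KO + PBS. The processed pseudogene share, given above, was lower in the same libraries in which these near-identical genes fell, and its part in the result was not tested.

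**Figure D5:**
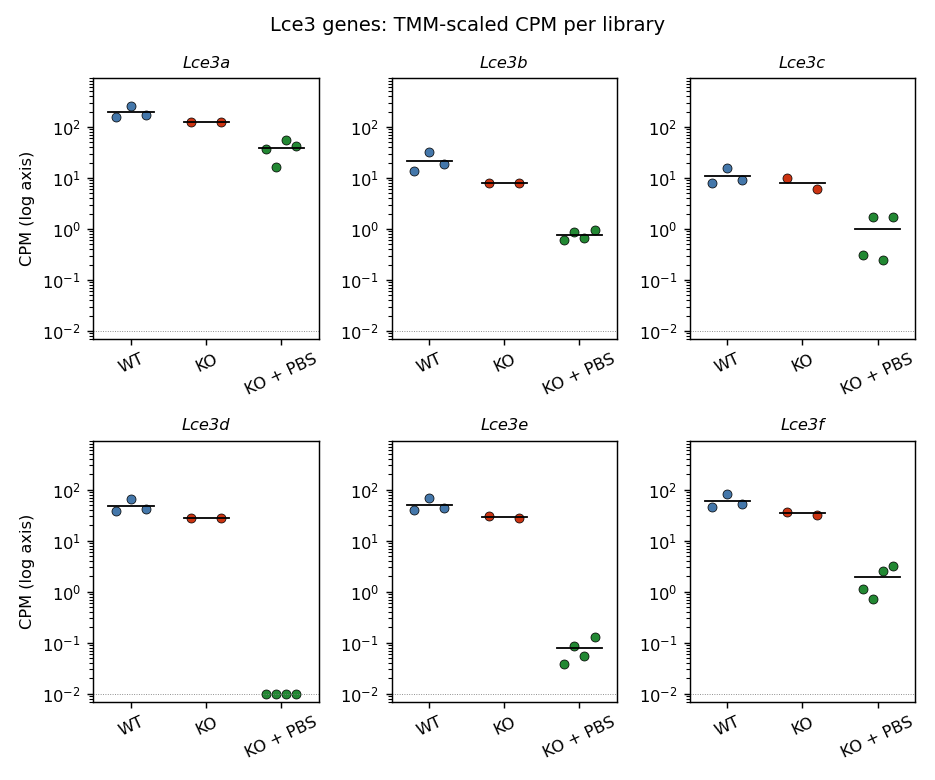
TMM-scaled CPM (log axis) of the 6 Lce3 genes in each library, as points by group with the group mean as a line; points on the dotted line at 0.01 are libraries at 0. All KO + PBS points lie below all KO points in every panel, and Lce3d is at 0 in the 4 KO + PBS libraries.

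Cnfn fell with a log2 fold change of -2.06 ± 0.35 (adjusted p = 0.00107), to levels that overlapped those of WT. Sprr2d fell with -5.45 ± 1.43 (adjusted p = 0.0109) and was at 0 in KO + PBS replicates 1 and 3. Dmkn fell with -3.74 ± 0.91 (adjusted p = 0.00755), but its libraries overlapped, since KO + PBS replicate 2 was above KO replicate 2. Sprr2a3 fell with -3.61 ± 0.90 (adjusted p = 0.00826). Sprr2a1 and Sprr2a2 had 0 counts in all PBS libraries, at least 23.5-fold lower than the KO mean (adjusted p = 0.00186). That mean came from 3.93 and 0.535 CPM in KO replicates 1 and 2, and both genes passed the count filter only through KO. Other genes hold 96.3 and 96.5% of their 50-base stretches, and the part of shared sequence and library type in these 0 counts was not tested. Sprr1a, Sprr1b, Sprr2f and Sprr2g were not called between KO + PBS and KO, with log2 fold changes of -0.98 ± 0.84, -0.99 ± 1.41, 0.03 ± 1.06 and 0.09 ± 0.77.

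Against WT, the KO + PBS libraries held more RNA of 4 members, Sprr2g, Sprr1b, Sprr1a and Sprr2f, and less of 8, the 6 Lce3 genes, Sprr2a1 and Sprr2a2, out of 24. Over all genes 27.1% were called higher and 30% lower, so the members' share was near the background for lower and under it for higher. All KO + PBS libraries lay above all WT libraries for 3 members and below for 8, and 13 overlapped (26.7 and 33.5% of all genes lay above and below). The median log2 fold change was 0.10 over the members and 0.05 over all genes. Of the 14 tested members that share little sequence, 4 were higher, near the 27.1% of all genes, and 0 lower, under the 30% of all genes. The 3 comparisons share libraries and are not independent.

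The Sprr1b mean was at least 150-fold higher in KO + PBS than in WT (adjusted p = 0.0105), while its KO + PBS libraries ran from 0.559 to 25.5 CPM. Sprr2g rose with a log2 fold change of 3.56 ± 0.80 (adjusted p = 0.00444) and Sprr1a with 3.11 ± 0.86 (0.0130). Sprr2f rose with 2.92 ± 1.06 (adjusted p = 0.0401; 0.00449 to 0.222 over 19 alternatives), though KO + PBS replicate 1 lay within the WT range, and the call was lost without any 1 of WT replicates 1 to 3, KO replicates 1 and 2 or KO + PBS replicates 2 and 4. For all 4 genes, KO + PBS replicates 2 and 4 held more than replicates 1 and 3. The same 2 libraries had the highest stroma marker sums, 12979 and 6178 CPM against 1886 and 3104 CPM, and replicate 2 the highest mitochondrial share; their part in the result was not tested. Without WT replicate 3 Sprr1a was not called (adjusted p = 0.0531), and the count higher became 2, where 3798 of 18285 genes were called higher.

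Lce3e, at -9.28 ± 0.34 (adjusted p = 3.48e-08), Lce3b, at -4.80 ± 0.33 (2.41e-06), and Lce3f, at -4.98 ± 0.49 (3.07e-05), fell from WT to KO + PBS on the log2 scale. Lce3a fell too, with -2.35 ± 0.37 (0.000605), as did Lce3c with -3.44 ± 0.67 (0.00215). Set against the WT means, Lce3d was at least 512-fold lower (adjusted p = 2.48e-06), and Sprr2a1 and Sprr2a2 at least 2.19-fold lower (adjusted p = 0.0150). The part of shared sequence and library type in all of these falls was not tested.

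Genes that work beside the envelope were counted from 4 lists. Of 23 tested proteases and inhibitors of desquamation, the shedding of dead cells, 4 rose in KO against WT and 0 fell: the kallikrein genes Klk11 (1.62 ± 0.28 on the log2 scale, adjusted p = 0.0323) and Klk8, the convertase gene Furin (0.83 ± 0.14, 0.0323) and St14, which codes for matriptase (1.24 ± 0.22, 0.0367). Over all genes 0.963% were called higher in this fit. None of these calls, nor that of the transglutaminase gene Tgm5, was made without WT replicate 1, 2 or 3, when 0 of all genes were called, and with the replicate number as a block 2 genes in all were called higher and 3 lower. Klk11 had 21.5 ± 2.44 CPM in WT (SD, n = 3) and 66.1 ± 28.7 CPM in KO (SD, n = 2). Of 17 plakins and crosslinking partners 1 rose, Tgm5, from 11.3 ± 0.397 to 30.7 ± 8.61 CPM (1.44 ± 0.27, adjusted p = 0.0386). Of 25 genes of the lipid envelope and 30 regulators of terminal differentiation, 0 passed in edgeR on all 9 libraries. In the untreated libraries alone, 13 of 22 desquamation genes, 7 of 16 plakins and partners, 13 of 29 regulators and 5 of 25 lipid genes were higher, and 0, 0, 1 and 3 were lower, where 11.5% of all genes were higher and 8.99% lower.

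Between KO + PBS and KO, 13 of 23 desquamation genes fell and 1 rose, 10 of 17 partners fell and 1 rose, 6 of 25 lipid genes fell and 2 rose, and 5 of 30 regulators fell and 7 rose. Over all genes 29.7% fell and 23.6% rose, so the lipid genes and regulators were at or under that share. The 3 partners with the smallest adjusted p were S100a11 (-3.12 ± 0.24, 6.95e-06) and S100a10 (-1.81 ± 0.24, 0.000237), genes of calcium-binding envelope precursors, and the protease inhibitor gene Cst6 (-1.68 ± 0.21, 0.000153), all lower in KO + PBS. Klk11 fell (-2.40 ± 0.26), as did Klk8 (-4.12 ± 0.58) and Tmprss13 (-0.91 ± 0.15). Elovl1, which elongates fatty acids, fell (-1.40 ± 0.16), and the lipase gene Lipm rose (3.30 ± 0.58). Elf3, an epithelial transcription factor gene, fell (-1.60 ± 0.25), the receptor gene Notch1 rose (3.05 ± 0.51), and Fosl1, of the AP-1 family, had 0 counts in all untreated libraries and 2.51 ± 1.01 CPM in KO + PBS (SD, n = 4).

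Against WT, 27.1% of all genes were higher in KO + PBS and 30% lower. Of the 30 regulators 18 were higher and 1 lower, among them Notch1 (3.16 ± 0.43), Ovol1 (1.94 ± 0.33) and Fosl1. Of the 25 lipid genes, near those shares, 7 were higher, with Lipm (3.36 ± 0.49) and Sgms1 (1.41 ± 0.28), and 6 lower, with Elovl1 (-1.14 ± 0.14). Of the 23 desquamation genes, under those shares, 4 were higher, with Furin (0.71 ± 0.12) and the inhibitor gene Spink5 (2.51 ± 0.53), and 4 lower, with Ctsd (-0.70 ± 0.16). Of the 17 partners 2 were higher and 7 lower, with Cst6 (-2.03 ± 0.19), S100a11 (-2.26 ± 0.22) and S100a10 (-1.46 ± 0.22) lower.

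Other marker sums of the whole series were conjunctiva and goblet cells at 1223 to 1793 CPM in WT, 1629.7 and 1709 CPM in KO and 789 to 2756 CPM in KO + PBS. Leukocyte markers summed to 153 to 192, 187 to 384 and 250 to 774 CPM, hair follicle markers to 4.72 to 5.67, 3.07 to 8.09 and 4.22 to 14.4 CPM, and corneal endothelium markers to 892 to 974, 309 to 445 and 1877 to 4974 CPM. Krt13, a conjunctival keratin, had 894 ± 161 CPM, 1305 ± 99.2 CPM and 540.0 ± 99.1 CPM in WT, KO and KO + PBS, the goblet cell mucin gene Muc5ac 10.1 ± 4.02 CPM, 1.11 ± 1.42 CPM and 0.341 ± 0.214 CPM, and the keratocyte gene Kera 480.1 ± 36.3 CPM, 23.7 ± 0.883 CPM and 111 ± 71.7 CPM.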

How the data were processed

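Bulk RNA sequencing counts of 9 mouse cornea libraries were used. The submitters' processing notes name fastp, STAR, featureCounts and the build mm10. Their versions, the annotation, the strand setting and the treatment of multi-mapped reads are not given in the labels used here. The authors' deposited table holds raw whole-number counts per gene, not normalized. Of 34165 names, 23 read as calendar dates, made up 0.0318 to 0.140% of each library and were dropped. Positions came from GENCODE M21 (GRCm38), in which 31430 names matched, and promoters from RefSeq.

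Counts were tested with edgeR 4.0.16 (limma 3.58.1, R 4.3.3): filterByExpr, TMM scaling and 1 robust quasi-likelihood fit of all 9 libraries with group as the only factor. A call is a Benjamini-Hochberg adjusted p under 0.05 over 18489 genes, and rose and fell are kept for calls. SEs were derived as the log2 fold change over the root of F. CPM of genes are TMM-scaled and sums of marker lists are not. A count of 0 was taken to allow 3 counts per library, for counting error only. Folds given as at least a value set the mean of the other group against this limit, and single libraries can lie under that value. Members share a 50-base stretch where another gene's transcript holds it on either strand. The steps were tested on simulated data.

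Other settings tried were upper-quartile and RLE scaling, no filter, 1 CPM in 3 libraries, DESeq2 1.42.0, only the groups compared, glmTreat at a fold of 1.5, a replicate block, non-robust dispersion, protein-coding genes counted in every library and leaving out each library. The members, lists and alternatives were chosen with earlier results of these data known. Folds are given for called members (at most the 12 with the smallest adjusted p) or, under 6 calls, for the 6 with the smallest p, and for up to 3 called genes per companion list; 1 gene and 1 pair of sequences are not reported here. No library repeated another of its group.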

Additional observations from a re-analysis of the deposited data

Results flagged for a closer look

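Of 21 groups of values checked, 1 held a library far from the others of its group, and chance gives about 1 in 20. Lor, the loricrin gene, had 1.11 CPM in KO + PBS replicate 2, against 0.606, 0.559 and 0.523 CPM in the other KO + PBS libraries and 1.06 and 1.05 CPM in KO. That library also had the highest mitochondrial share, and the part of the latter was not tested.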

How the results depend on the processing

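For KO against WT, 0 members were called higher or lower in most settings, but several of these called almost no gene at all: 0 without any 1 WT library, 2 higher and 3 lower with the replicate block, and 8 and 4 with glmTreat. DESeq2 called 9 higher and 1 lower, the 5 untreated libraries alone 11 and 1, and leaving out KO + PBS replicate 2 gave 9 and 1, so leaving out 1 library each ranged from 0 to 9 higher and from 0 to 1 lower. Fits without KO replicate 1 or 2 keep 1 KO library and have no spread between KO libraries. Their counts of calls, here and below, therefore do not measure how stable the calls are. Leaving out 1 library within the 5 untreated ones, added after seeing the data, gave 2 to 17 higher (4, 4 and 2 without WT replicates 1, 2 and 3, 11 and 17 without KO replicates 1 and 2) and 0 to 1 lower. For KO + PBS against KO, the 15 lower ranged from 8 (without KO replicate 1) to 16 when 1 library was left out, and were 6 among members that share under 5% of their 50-base stretches, an alternative added after seeing the data. Against WT, the 4 higher ranged from 2 without WT replicate 3 (3798 of 18285 genes higher) to 5 without KO + PBS replicate 3 (4517 of 18616 genes). They were 2 with the replicate number as a block (3852 of 18489 genes) and 1 among protein-coding genes counted in every library (3623 of 14446 genes). There the 8 lower were 5 (3496 of 14446 genes), and among members that share little sequence 0. No direction of a named gene reversed under other settings, which include fits that left 1 KO library. Of their values under other settings, 33 passed the threshold for KO against WT where the reported one did not, and 6 and 13 no longer passed in the other comparisons. Replicate numbers were not shown to pair the samples (correlations of same-numbered libraries -0.343 to 0.132). The replicate block left 0 calls of members for KO against WT and 11 lower for KO + PBS against KO (4633 of 18489 genes lower). With the block, Dmkn and Sprr2d in the latter had adjusted p of 0.1001 and 0.0924, and Sprr1a and Sprr2f in KO + PBS against WT 0.0661 and 0.222. Upper-quartile scaling moved the median log2 fold change of all genes to 0.17 in both comparisons with KO + PBS. The cause of these shifts was not tested. The smallest group has 2 libraries, which limits every comparison with KO. Levels under 0.131 CPM (3 counts, without TMM factors) cannot be told from 0 in the shallowest library. On the TMM scale used for genes this limit differs by library, with 3 counts at 0.144 CPM in KO replicate 1.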
